A study of Rattus norvegicus with 8 samples.

Results

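The immediate early genes *Fos*, *Fosb*, *Junb*, *Egr1*, *Egr2*, *Egr3*, *Egr4*, *Arc*, *Npas4* and *Nr4a1* were 10 of the 22601 genes measured by RNA sequencing of the rat hippocampus. They were chosen by name and located by NCBI GeneID, and all 10 were among the 15593 genes tested, which had a mean of at least 0.1 FPKM (fragments scaled by transcript length and library size). The tissue came from wild-type Wistar rats, with 1 library per rat. The 3 Con. rats received saline and then the solvent of Q808. The 3 PTZ rats received pentylenetetrazole (PTZ), a blocker of GABA-A receptors, at 35 mg/kg every 48 h for 14 injections over 28 days with a final dose of 60 mg/kg, and then the solvent of Q808 for 28 days. The 2 Q808 rats received the same PTZ course and then the candidate antiepileptic compound Q808 at 30 mg/kg by daily gavage for 28 days. A day after the last gavage, the PTZ and Q808 rats, but not the Con. rats, were injected again with a sub-convulsive dose of PTZ, scored for seizures and decapitated under light ether. The time from this injection to tissue collection is not given in the sources used here. A lasting effect of kindling and an effect of the last injection therefore cannot be told apart in any comparison with Con. At this assessment the study reported lower seizure scores and a longer latency to seizure in Q808 than in PTZ rats. In Q808 vs. PTZ, an effect of the drug on these genes and an effect of milder last seizures therefore cannot be told apart.

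Immediate early genes are transcribed within minutes of strong synaptic activity, without a need for new protein, and their transcripts decay quickly. Calcium entry and kinase signalling reach the transcription factors SRF and CREB, which are already bound at many of these promoters. Most members encode transcription factors that act on later genes, whereas *Arc* encodes a protein that works at synapses. In the hippocampus they serve as markers of recently active neurons, and seizures induce them in dentate granule cells and pyramidal cells.

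The libraries fell into 2 sets by tissue markers. The mean log2(FPKM + 0.1) of 5 striatum markers (*Drd1*, *Drd2*, *Adora2a*, *Rgs9* and *Ppp1r1b*) lay between 1.65 and 2.47 in Con.-1, Con.-2, PTZ-1, PTZ-2 and Q808-2, named striatum-poor here, and between 6.10 and 7.23 in Con.-3, PTZ-3 and Q808-1, named striatum-rich. Hippocampal markers were mixed: of 6 dentate granule markers 3 were lower in every striatum-rich than in every striatum-poor library and 1 was higher, and the same counts held for 6 pyramidal cell markers. *Prox1*, which marks dentate granule cells, lay between 2.84 and 4.04 FPKM in the striatum-rich and between 12.2 and 16.6 FPKM in the striatum-poor libraries, whereas *Pdzd2* lay between 5.78 and 13.2 FPKM and between 3.53 and 5.26 FPKM. In each of these lists 2 markers were listed at 0 in at least 1 library. Each group held both kinds of library, so members are given over all libraries and within the striatum-poor ones. Within the striatum-poor libraries, the mean log2(FPKM + 0.1) of 6 choroid plexus markers was 4.05 and 4.24 in Con.-1 and Con.-2, 1.85 and 1.34 in PTZ-1 and PTZ-2 and 5.77 in Q808-2. All 6 were called lower in PTZ there, beside 5.74% of all genes tested. In Q808-2 their median log2 difference was 4.23 against PTZ and 1.68 against Con., beside 0.16 and 0.05 for all genes tested. The part of these markers in the results below was not tested. In bulk tissue, fewer cells of a type and less RNA per cell cannot be told apart.

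**Figure D1:**
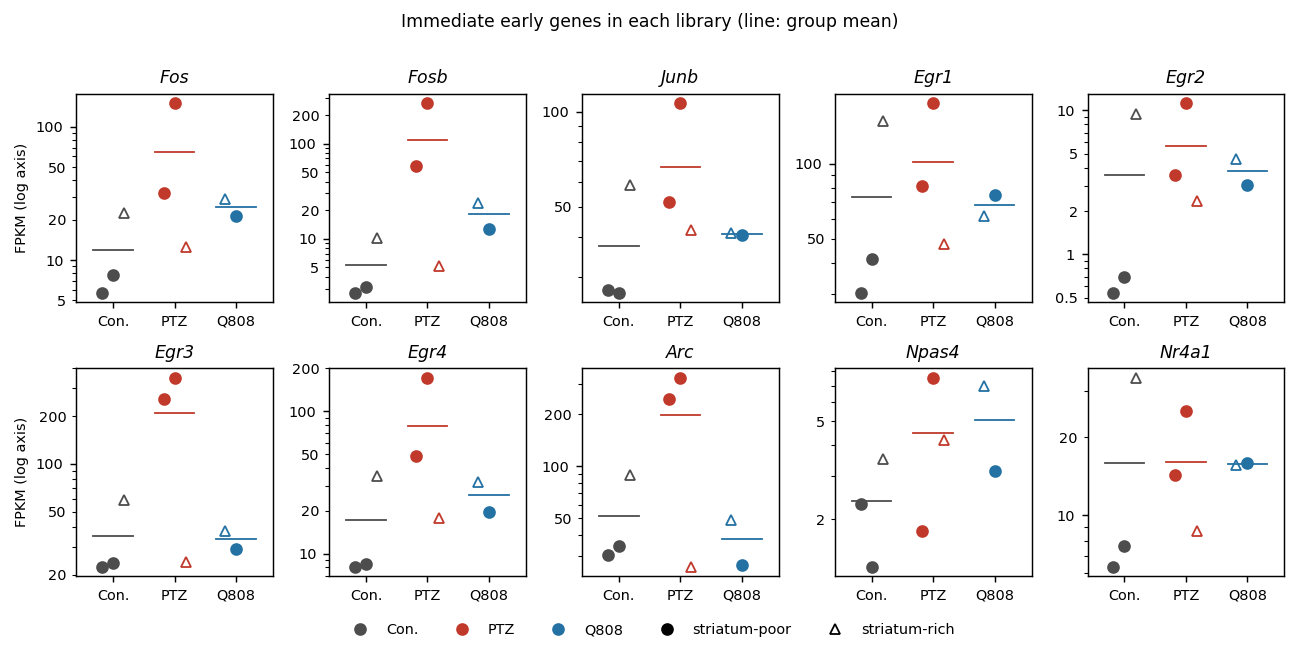
FPKM of each immediate early gene in each library on a log axis, with filled circles for striatum-poor and open triangles for striatum-rich libraries, and a line at the arithmetic mean of each group (Con. and PTZ n = 3, Q808 n = 2). PTZ-2 was the highest of the 8 libraries for 9 of the 10 genes, and Con.-3 lay above Con.-1 and Con.-2 for all 10.

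Promoter windows of 250 bases before the start of the gene were on hand for 7 of the 10 genes in RefSeq (GRCr8), and 4 of them are shown as examples of the letters bound by the factors named above. The *Egr1* window, which holds 2 CArG boxes and 2 TGACG motifs, is not shown. Capitals mark the CArG box (the site of SRF), the motif TGACG on either strand (read as CGTCA on the other strand, a site of CREB) and the motif GCGNGGGCG on either strand (a site of EGR proteins).
*Egr2*, chr20:21054442-21054691, minus strand: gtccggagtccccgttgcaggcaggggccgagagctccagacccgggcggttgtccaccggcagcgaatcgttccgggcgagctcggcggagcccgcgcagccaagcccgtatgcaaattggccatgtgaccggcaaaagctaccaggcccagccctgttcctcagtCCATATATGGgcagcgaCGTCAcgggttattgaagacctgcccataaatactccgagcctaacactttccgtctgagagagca
*Egr4*, chr4:119607818-119608067, minus strand: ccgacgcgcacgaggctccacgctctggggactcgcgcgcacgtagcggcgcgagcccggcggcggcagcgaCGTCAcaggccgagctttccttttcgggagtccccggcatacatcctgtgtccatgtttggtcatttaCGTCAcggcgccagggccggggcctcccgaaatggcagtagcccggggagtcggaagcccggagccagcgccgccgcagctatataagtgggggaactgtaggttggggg
*Nr4a1*, chr7:134259888-134260137, plus strand: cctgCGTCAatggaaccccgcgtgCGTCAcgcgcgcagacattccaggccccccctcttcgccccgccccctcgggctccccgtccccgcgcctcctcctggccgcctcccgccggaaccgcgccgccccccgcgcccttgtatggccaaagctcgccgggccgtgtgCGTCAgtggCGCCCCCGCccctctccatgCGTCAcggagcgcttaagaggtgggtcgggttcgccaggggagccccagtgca
*Junb*, chr19:40080876-40081125, plus strand: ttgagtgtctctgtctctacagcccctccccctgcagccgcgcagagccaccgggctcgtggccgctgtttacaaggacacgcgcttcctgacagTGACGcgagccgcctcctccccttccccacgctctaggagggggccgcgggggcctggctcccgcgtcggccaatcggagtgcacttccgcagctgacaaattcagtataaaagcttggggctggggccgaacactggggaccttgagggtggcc

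The TGACG motif was in 5 of the 7 windows (*Egr1*, *Egr2*, *Egr4*, *Junb* and *Nr4a1*), beside 18.2% of all 33469 windows of this length. The *Nr4a1* window held 4 copies, starting 246, 226, 82 and 53 bases before the start. The CArG box was in 2 of the 7 windows (*Egr1* and *Egr2*), beside 1.5% of all windows. In *Egr2* it began 83 bases before the start, with a TGACG motif beginning at 66 bases. The EGR motif was in the *Nr4a1* window alone among the 7, beside 4.29% of all windows, and overlapped no other marked motif. Neither the full CREB site TGACGTCA (1.59% of all windows) nor the AP-1 site TGANTCA (6.34%) was in any of the 7, and the windows of *Fosb* and *Npas4* held none of these letters. A match is only a match of letters, and absence from a window says nothing of a factor.

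PTZ vs. Con. asks which of these genes differed in kindled rats after the last PTZ dose. Over all libraries, the mean of the 3 PTZ libraries lay above that of Con. on the log2 scale for all 10 genes, but only *Fosb* rose by the test, and PTZ-3 was low and Con.-3 high for most of them. Calls required more than 1.5-fold difference and a limma p under 0.05 before adjustment. This was met upwards by 1 of 10 members and by 1.69% of all genes tested. The median difference of the members was 1.47 on the log2(FPKM + 0.1) scale, beside -0.04 for all genes tested. Within the striatum-poor libraries, 9 of the 10 members rose in PTZ, all but *Npas4*, beside 4.09% of all genes tested called higher there, with a median difference of 3.15 beside -0.11 for all genes. Among all genes called there, 637 were higher and 895 lower in PTZ, but 787 and 530 with quantile normalization and 850 and 571 with median ratio scaling, and the 9 members were called under both.

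Among the AP-1 members, *Fosb*, whose product pairs with Jun proteins and whose truncated form is long lived, had the largest estimated difference. Its FPKM was 2.72, 3.15 and 10.1 in Con.-1 to Con.-3, 58.3, 265 and 5.21 in PTZ-1 to PTZ-3, and 24.0 and 12.6 in Q808-1 and Q808-2. PTZ-1 and PTZ-2 stood above all other libraries, but PTZ-3 lay below Con.-3, so the PTZ and Con. groups overlapped. Over all libraries *Fosb* was 3.26 higher on the log2 scale in PTZ (SE 1.32, adjusted p = 0.999 by limma). Left out singly, Con.-1, Con.-2 or PTZ-2 each took the count of called members from 1 to 0, while it was 7 without Con.-3 and 5 without PTZ-3. Of all genes, 346 were called higher without Con.-3 and 466 without PTZ-3, beside 264 with all libraries. The *Fosb* difference itself was 1.96 without PTZ-2 and 4.78 without PTZ-3. The striatum-poor *Fosb* difference was 5.36 (SE 0.658, adjusted p = 0.0389 by limma), 6.45 without PTZ-1 and 4.27 without PTZ-2.

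*Fos* encodes the founding member of the same family. Its FPKM was 5.70, 7.71 and 22.4 in the Con. libraries, 31.7, 150.1 and 12.5 in the PTZ libraries, and 28.7 and 21.5 in the Q808 libraries. PTZ-2 was 4.74 times PTZ-1, the widest gap between these libraries among the members. *Fos* rose in the striatum-poor libraries by 3.36 on the log2 scale (SE 0.684, adjusted p = 0.107 by limma), a difference that was 4.48 without PTZ-1 and 2.24 without PTZ-2.

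*Junb* encodes a Jun protein that is itself induced by activity. Its FPKM was 27.3, 26.7 and 58.7 in the Con. libraries, 51.6, 106 and 42.1 in the PTZ libraries, and 41.3 and 40.7 in the Q808 libraries. Con.-3 lay above PTZ-1 here, so the rise rested on the striatum-poor libraries, where it was 1.45 (SE 0.319, adjusted p = 0.125 by limma), with both PTZ libraries above both Con. libraries.

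The EGR members encode zinc finger proteins that share a GC-rich site. *Egr3* had the smallest SE among them in the striatum-poor libraries. Its FPKM was 22.4, 23.8 and 59.0 in the Con. libraries, 258, 349 and 24.0 in the PTZ libraries, and 37.9 and 29.0 in the Q808 libraries. PTZ-3 lay just above Con.-1 and Con.-2, whereas PTZ-1 and PTZ-2 were the highest of all. Between the striatum-poor libraries *Egr3* rose by 3.69 (SE 0.153, adjusted p = 0.00608 by limma).

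*Egr4* and *Egr2*, the latter also known for its part in myelination and hindbrain patterning, had lower levels. *Egr4* was at 8.08, 8.51 and 35.3 FPKM in the Con. libraries, 48.7, 172 and 17.7 in the PTZ libraries, and 31.8 and 19.7 in the Q808 libraries. *Egr2*, whose promoter window holds both a CArG box and a TGACG motif, was at 0.544, 0.700 and 9.41 FPKM in the Con. libraries, 3.56, 11.2 and 2.34 in the PTZ libraries, and 4.59 and 3.06 in the Q808 libraries. Con.-3 was above PTZ-1 for *Egr2* and below it for *Egr4*. *Egr4* rose in the striatum-poor libraries by 3.45 (SE 0.548, adjusted p = 0.0665 by limma) and *Egr2* by 3.16 (SE 0.532, adjusted p = 0.076). Without PTZ-1 these differences were 4.36 and 3.97, and without PTZ-2 they were 2.54 and 2.35.

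*Egr1*, also called Zif268 and linked to the maintenance of synaptic potentiation, had the highest level among the members in 5 of the 8 libraries on the per-kilobase FPKM scale. It was at 30.4, 41.5 and 148 FPKM in the Con. libraries, 81.6, 175 and 47.8 in the PTZ libraries, and 61.5 and 75.3 in the Q808 libraries. Con.-3 nearly reached PTZ-2. The striatum-poor rise of *Egr1* was 1.75 (SE 0.361, adjusted p = 0.109 by limma), the smallest estimate of the 4 EGR members.

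*Arc*, whose product takes part in removing AMPA receptors from synapses and whose RNA travels into dendrites, had a pattern near that of *Egr3*. Its FPKM was 30.4, 34.3 and 89.6 in the Con. libraries, 246, 326 and 26.1 in the PTZ libraries, and 48.6 and 26.8 in the Q808 libraries. PTZ-3 was the lowest of the 8 libraries for *Arc*, the only member for which this held. *Arc* rose in the striatum-poor libraries by 3.13 (SE 0.153, adjusted p = 0.00608 by limma).

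*Nr4a1* encodes an orphan nuclear receptor also known as Nur77. It was at 6.34, 7.65 and 33.8 FPKM in the Con. libraries, 14.3, 25.2 and 8.69 in the PTZ libraries, and 15.7 and 15.8 in the Q808 libraries. Con.-3 was the highest library for this gene, and the means of the Con. and PTZ groups were 15.9 ± 15.5 and 16.0 ± 8.38 FPKM (SD, n = 3 each). Its difference over all libraries was 0.30 (SE 0.671, adjusted p = 0.999 by limma) and ranged from -0.14 without Con.-1 to 1.06 without Con.-3. The striatum-poor rise was 1.43 (SE 0.277, adjusted p = 0.1 by limma).

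*Npas4*, a neuron-specific factor of the bHLH-PAS family that responds to calcium entry, was the member that passed in neither fit. It was at 2.31, 1.28 and 3.50 FPKM in the Con. libraries, 1.79, 7.54 and 4.19 in the PTZ libraries, and 6.99 and 3.14 in the Q808 libraries. PTZ-1 lay between Con.-1 and Con.-2, so the groups overlapped in the striatum-poor libraries too. The difference there was 1.06 (SE 0.672, adjusted p = 0.42 by limma).

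**Figure D2:**
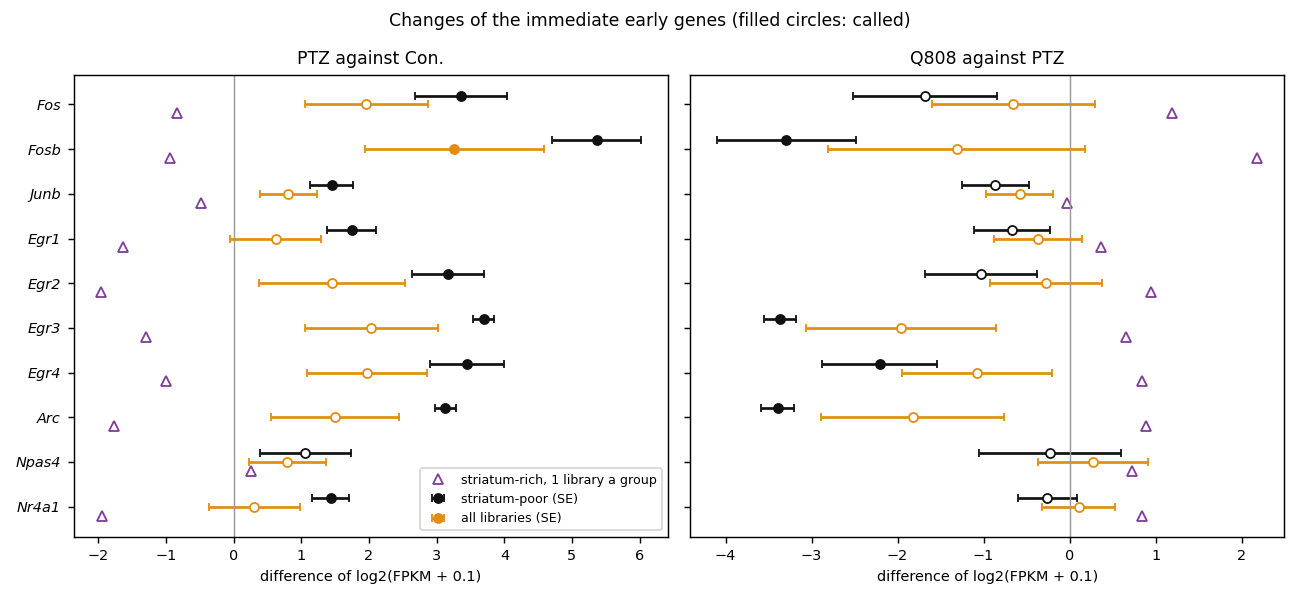
Difference of log2(FPKM + 0.1) for PTZ vs. Con. (left) and Q808 vs. PTZ (right), with the limma estimate and its SE over all libraries (orange) and in the striatum-poor libraries (black), filled where called, and the difference of the single striatum-rich libraries (triangles, no test). For 9 of 10 genes the striatum-rich PTZ vs. Con. difference lay below 0 and the striatum-poor one above 0.

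In the striatum-poor libraries, 9 members had both PTZ libraries above both Con. libraries, beside 15.8% of all genes tested. *Egr3*, *Arc* and *Fosb* also had an adjusted p under 0.05 over all genes, as did 148 (0.949%) of the 15593 genes. With the replicate number as a block, all 9 had adjusted p between 0.000582 and 0.0444 by limma. This block pairs Con.-1 with PTZ-1 and Con.-2 with PTZ-2 on a correlation in the data alone. Across genes, the Con.-1 minus Con.-2 and PTZ-1 minus PTZ-2 differences correlated at only 0.066, so the pairing had little support in these libraries. Over the 12 alternatives the adjusted p ranged from 0.000582 to 0.222 for *Egr3* and for *Arc* and from 0.00734 to 0.372 for *Fosb*. Each of the 9 was called under all 12. Deposited FPKM had a median difference of all genes of -0.11 in this comparison and 0.16 in Q808-2 vs. PTZ, which median ratio scaling moved to 0.01 and -0.02. No member changed direction under quantile normalization or median ratio scaling in any comparison.

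PTZ-2 was above PTZ-1 for all 10 members, but by very different factors. The ratio of PTZ-2 to PTZ-1 was 1.33 for *Arc* and 1.35 for *Egr3*, and 4.74 for *Fos* and 4.55 for *Fosb*. The members thus took different shares in the 2 rats. In PTZ-1 and in PTZ-2 *Egr3* had the highest FPKM of the 10, followed by *Arc*, while in Con.-2, Con.-3, PTZ-3, Q808-1 and Q808-2 *Egr1* did. The summed FPKM of the 10 was 136, 155 and 470.3 in the Con. libraries, 796, 1588 and 191 in the PTZ libraries and 301 and 248 in the Q808 libraries.

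The balance of *Fosb* to *Fos* set PTZ-1 and PTZ-2 apart from the other libraries. The ratio of their FPKM was 0.477, 0.408 and 0.451 in the Con. libraries, 1.84, 1.77 and 0.416 in the PTZ libraries and 0.837 and 0.587 in the Q808 libraries. It was above 1 in PTZ-1 and PTZ-2 alone, and Con.-3, with *Fos* at 22.4 FPKM, kept the ratio of the other Con. libraries. The ratio of *Egr3* to *Egr1* was 3.17 in PTZ-1 and 2.00 in PTZ-2 and lay between 0.386 and 0.738 in the other 6 libraries. The ratio of *Arc* to *Egr1* was 3.01 in PTZ-1 and 1.87 in PTZ-2 and lay between 0.356 and 1.00 in the others. Values are per gene, so full-length and truncated *Fosb* transcripts were not told apart.

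**Figure D3:**
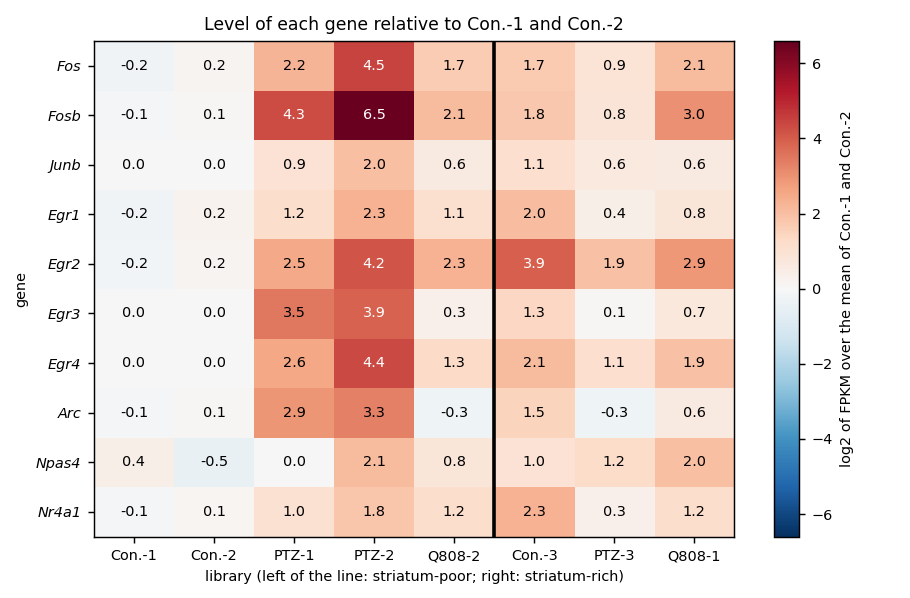
Each gene's log2 ratio of FPKM to the mean of Con.-1 and Con.-2, by library, with the striatum-poor libraries left of the line and the striatum-rich ones right of it. PTZ-1 had its 3 largest ratios for *Fosb*, *Egr3* and *Arc* and PTZ-2 for *Fosb*, *Fos* and *Egr4*, whereas Con.-3 had its largest ratio for *Egr2*.

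In the striatum-rich libraries, with 1 rat per group and no test, the direction was the opposite. PTZ-3 was below Con.-3 for 9 members, all but *Npas4*, with a median difference of -1.14 over the 10 beside 0.11 over all genes tested. *Arc* was at 26.1 FPKM in PTZ-3 and 89.6 in Con.-3, *Egr1* at 47.8 and 148, and *Egr2* at 2.34 and 9.41. *Npas4* was at 4.19 and 3.50. Q808-1 was above PTZ-3 for 9 members, all but *Junb*, with a median difference of 0.84, and below Con.-3 for 7. The difference between the PTZ vs. Con. contrasts of both sets had p under 0.05 by limma for 9 members, beside 22.8% of all genes tested, and an adjusted p under 0.05 for *Egr3* (-4.99, SE 0.265, adjusted p = 0.0102) and *Arc* (-4.90, SE 0.265, adjusted p = 0.0102). That fit holds 1 striatum-rich library in each group. Those libraries added nothing to the estimated spread and were assumed to vary like the striatum-poor ones. Con.-3, the control with the highest striatum markers, was above Con.-1 and Con.-2 for all 10 members, by 1.95 to 15.1 times the mean of the pair.

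Q808 vs. PTZ asks whether the drug-treated kindled rats differed from the kindled rats given solvent. Over all libraries 0 of 10 members were called by limma, none at an unadjusted p under 0.05, beside 0.564% of all genes tested called lower. Of all genes called, 212 were higher and 88 lower, but 130 and 142 with quantile normalization and 193 and 103 with median ratio scaling. The Q808 mean lay below the PTZ mean on the log2 scale for 8 members, all but *Npas4* and *Nr4a1*, with a median of -0.62 beside 0.10 for all genes. *Junb* alone had every Q808 library below every PTZ library, and this ordering was met by 5.02% of all genes tested. The *Junb* difference was -0.58 (SE 0.389, adjusted p = 0.952 by limma). Without PTZ-3, 4 members were called lower, when 347 of all genes were called lower, beside 88 with all libraries. Without PTZ-2 the sign of *Fos*, *Egr1* and *Egr2* turned, to 0.32, 0.12 and 0.37.

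Within the striatum-poor libraries, Q808-2 was compared with PTZ-1 and PTZ-2, and as a lone library it was assumed to vary like the others. There 4 of 10 members fell, beside 2.31% of all genes tested called lower. This background moved with scaling: 360 genes were lower and 1265 higher as deposited, 651 and 581 with quantile normalization and 565 and 781 with median ratio scaling, with 4 members called lower under each. *Arc* fell by 3.40 on the log2 scale (SE 0.187, adjusted p = 0.00738 by limma) and *Egr3* fell by 3.37 (SE 0.188, adjusted p = 0.00738), where 0.603% of all genes tested had an adjusted p under 0.05. *Fosb* fell by 3.29 (SE 0.806, adjusted p = 0.202 by limma) and *Egr4* fell by 2.21 (SE 0.671, adjusted p = 0.258). Without PTZ-1 these differences were -4.38 and -3.12, and without PTZ-2 they were -2.20 and -1.30. Over the 12 alternatives the adjusted p of *Arc* ranged from 0.00138 to 0.157 and that of *Egr3* from 0.00145 to 0.157. More members were called without PTZ-1, when more of all genes were called lower too. The median over the 10 was -1.35 beside 0.16 for all genes.

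The remaining 6 members were not called lower in Q808-2. *Fos* differed by -1.68 (SE 0.837, adjusted p = 0.398 by limma), *Egr2* by -1.03 (SE 0.652, adjusted p = 0.484) and *Junb* by -0.86 (SE 0.391, adjusted p = 0.368). *Egr1* differed by -0.67 (SE 0.442, adjusted p = 0.501), *Nr4a1* by -0.26 (SE 0.339, adjusted p = 0.736) and *Npas4* by -0.23 (SE 0.823, adjusted p = 0.913). With PTZ-1 or PTZ-2 left out, *Fos* ranged from -2.80 to -0.56, *Egr2* from -1.84 to -0.21, *Junb* from -1.38 to -0.34 and *Egr1* from -1.21 to -0.12. Q808-2 lay below both PTZ libraries for 8 of the 10, all but *Npas4* and *Nr4a1*, an ordering met by 20.8% of all genes tested. For *Nr4a1* it lay between PTZ-1 and PTZ-2, at 15.8 FPKM.

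Q808 vs. Con. asks how far the drug-treated rats stood from vehicle rats. Over all libraries *Fosb* rose, by 1.95 (SE 0.631, adjusted p = 0.901 by limma), the single member called, beside 3.07% of all genes tested called higher. Genes called higher and lower were 479 and 61, but 283 and 158 with quantile normalization and 400 and 99 with median ratio scaling, and *Fosb* was called under both. *Fosb* was also the single member with both Q808 libraries above all 3 Con. libraries, an ordering met by 13.3% of all genes tested. Without Con.-3, 8 members were called, when 624 of all genes were called higher. Without Con.-1 or Con.-2, 0 members were called, when 334 and 244 of all genes were called higher. The 9 members other than *Arc* had a Q808 mean above Con. on the log2 scale, and the median was 0.65 beside 0.04 for all genes. In the same comparison 4 of 5 erythroid markers and 3 of 6 endothelial markers were called higher, and 0 of either list lower. The mean log2(FPKM + 0.1) of the 5 erythroid markers was 2.01 to 2.72 in the Con. libraries, 2.74 to 3.37 in the PTZ libraries and 4.29 and 3.77 in Q808-1 and Q808-2. That of 6 endothelial markers was 3.42 to 3.47 in the Con. libraries, 3.57, 3.10 and 4.31 in PTZ-1 to PTZ-3, and 4.59 and 3.65 in Q808-1 and Q808-2. None of these markers was listed at 0 in any library. The part of these markers in the *Fosb* result was not tested.

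In the striatum-poor libraries 3 of 10 members rose in Q808-2 against Con.-1 and Con.-2, beside 3.87% of all genes tested called higher. Genes called higher and lower were 604 and 103, but 387 and 218 with quantile normalization, which called 3 members, and 494 and 129 with median ratio scaling, which called 2. *Egr2* rose by 2.14 (SE 0.652), *Fosb* by 2.07 (SE 0.806) and *Nr4a1* by 1.17 (SE 0.339), with adjusted p between 0.695 and 0.844 by limma. The count was 0 without Con.-1, 1 without Con.-2, and 7 without PTZ-1 or without PTZ-2, which only set the spread here. Q808-2 lay above both Con. libraries for 9 members, all but *Arc*, an ordering met by 40.3% of all genes tested.

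The 3 striatum-poor comparisons share libraries, so their values are set side by side without a test between them. *Arc* was 8.84 times the mean of Con.-1 and Con.-2 in PTZ-1 and PTZ-2 and 0.829 times it in Q808-2. *Egr3* was 13.1 times it in PTZ and 1.26 times in Q808-2. *Nr4a1* was 2.82 times in PTZ and 2.26 times in Q808-2. *Egr2* and *Fosb* were 11.9 and 55.1 times it in PTZ and 4.91 and 4.29 times in Q808-2. In Q808-2 against Con., the log2 difference was -0.27 for *Arc*, 0.33 for *Egr3*, 1.17 for *Nr4a1*, 2.14 for *Egr2* and 2.07 for *Fosb*. Q808-2 is a lone library, and the calls of this comparison moved with single libraries as given above.

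**Figure D4:**
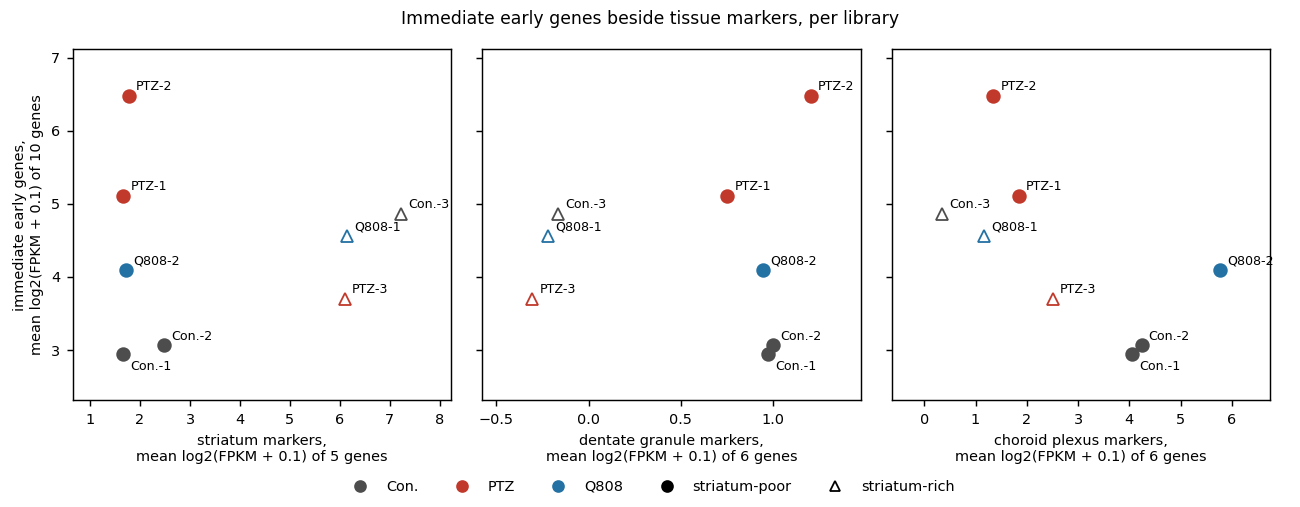
Mean log2(FPKM + 0.1) of the 10 immediate early genes in each library (vertical axis) against that of 5 striatum, 6 dentate granule and 6 choroid plexus markers (horizontal axes). The members ranged from 2.95 to 6.48 across the striatum-poor libraries, in which choroid plexus markers ranged from 1.34 to 5.77 and were lowest in PTZ-2 and PTZ-1.

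Of 6 dentate granule markers, 2 were lower in both striatum-poor PTZ libraries than in Con.-1 and Con.-2 (*Prox1* and *Dsp*), 1 was higher (*C1ql2*) and 3 overlapped. Their mean log2(FPKM + 0.1) over 6 genes was 0.97 and 1.00 in Con.-1 and Con.-2, 0.75 and 1.20 in PTZ-1 and PTZ-2, and 0.94 in Q808-2, with *Lct* and *Tdo2* near 0 throughout. *Prox1* was at 15.9 and 16.6 FPKM in Con.-1 and Con.-2, 12.2 and 14.7 in PTZ-1 and PTZ-2 and 14.3 in Q808-2. Oligodendrocyte markers lay between 7.30 and 7.99 in these libraries and between 8.63 and 9.39 in the striatum-rich ones.

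Relatives of the members were followed by list. The 6 AP-1 relatives (*Fosl1*, *Fosl2*, *Jun*, *Jund*, *Atf3* and *Maff*) encode partners or kin of Fos and Jun. All 6 rose in PTZ in the striatum-poor libraries, with a median of 3.17, beside 4.09% of all genes tested called higher there. *Maff*, a small Maf protein, rose by 3.72 (SE 0.413, adjusted p = 0.0331 by limma), from 0.261 and 0.464 FPKM in Con.-1 and Con.-2 to 4.13 and 8.22 in PTZ-1 and PTZ-2. *Atf3*, a stress-induced factor, rose by 3.56 (SE 0.329, adjusted p = 0.0232) and *Fosl2* by 3.22 (SE 0.368, adjusted p = 0.0358). *Fosl1* was at low levels, listed at 0 in Con.-2, and its difference of 3.11 (SE 0.765, adjusted p = 0.147) depends on the pseudocount. Over all libraries 4 of the 6 rose in PTZ, beside 1.69% of all genes tested called higher. These were *Maff* by 2.56, *Fosl1* by 2.34, *Atf3* by 2.32 and *Jund* by 0.88, all with adjusted p = 0.999 by limma. Against Con., 3 of the 6 were called higher in Q808 over all libraries, beside 3.07% of all genes tested. These were *Maff* by 2.49 (SE 0.364, adjusted p = 0.901 by limma), *Atf3* by 1.80 and *Fosl1* by 1.62. In Q808-2 against the striatum-poor PTZ libraries the median difference of the 6 was -1.09, beside 0.16 for all genes tested.

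Of 6 relatives of the EGR, NR4A and NPAS members (*Nab1*, *Nab2*, *Nr4a2*, *Nr4a3*, *Arnt* and *Arnt2*), 0 were called by limma over all libraries in any of the 3 comparisons, and *Nab1* in PTZ vs. Con. alone had an unadjusted p under 0.05, with less than 1.5-fold difference. Of these, 3 rose in PTZ in the striatum-poor libraries, beside 4.09% of all genes tested called higher there. *Nr4a2* rose by 2.11 (SE 0.401, adjusted p = 0.0961 by limma), *Nr4a3* by 1.34 (SE 0.198, adjusted p = 0.0585) and *Nab2*, a corepressor of EGR proteins, by 1.25 (SE 0.162, adjusted p = 0.0442). *Arnt* and *Arnt2*, partners of Npas4, differed by -0.39 and 0.14.

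Among 37 other rapid-response genes, 28 rose and 0 fell in PTZ in the striatum-poor libraries, with a median of 1.35. There 4.09% of all genes tested were called higher. *Pim1*, a kinase gene, rose by 3.43 (SE 0.422, adjusted p = 0.039 by limma), *Arl4d* by 2.87 (SE 0.318, adjusted p = 0.0331) and *Gadd45b*, which is tied to DNA demethylation in neurons, by 2.86 (SE 0.212, adjusted p = 0.0135). Over all libraries 11 of the 37 rose and 0 fell, beside 1.69% of all genes tested called higher. *Pim1* differed by 2.26, *Gadd45b* by 1.88, *Arl4d* and *Gadd45g* both by 1.66 and *Klf10* by 1.53. Each of these had adjusted p = 0.999 by limma. In Q808 vs. PTZ over all libraries 4 of the 37 fell and 2 rose, beside 0.564% of all genes tested called lower and 1.36% called higher. The log2 difference was -1.14 for *Plk2*, a kinase of synaptic scaling, -1.03 for *Homer1*, a postsynaptic scaffold, -0.999 for *Rgs2* and -0.89 for *Rheb*, while *Klf4* rose by 0.93. Each of these had adjusted p = 0.952 by limma. In the striatum-poor libraries 19 fell and 1 rose in Q808-2, beside 2.31% of all genes tested called lower and 8.11% called higher. This background moved with scaling as given above. In Q808 vs. Con. over all libraries 5 rose, beside 3.07% of all genes tested called higher. Among them were *Sgk1* at 1.14, *Gadd45g* at 0.98 and *Ier3* at 0.95, each with adjusted p = 0.901 by limma.

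The late-response list holds 8 genes that follow the members in time. Of these, 6 rose in PTZ in the striatum-poor libraries, with a median of 1.57, beside 4.09% of all genes tested called higher there. *Inhba*, the activin A subunit, rose by 4.59 (SE 0.47, adjusted p = 0.028 by limma), from 1.02 and 0.990 FPKM in Con.-1 and Con.-2 to 15.8 and 44.2 in PTZ-1 and PTZ-2. *Nptx2*, which gathers AMPA receptors, rose by 3.76 (SE 0.194, adjusted p = 0.00658) and *Bdnf*, a neurotrophin, by 3.08 (SE 0.369, adjusted p = 0.0389). Over all libraries *Inhba* rose by 2.68 and *Nptx2* by 2.52 in PTZ, both with adjusted p = 0.999 by limma. There *Inhba* also fell by 3.29 in Q808 vs. PTZ (SE 1.22, adjusted p = 0.952 by limma). In Q808-2 against the striatum-poor PTZ libraries the median difference of the 8 was -1.54, beside 0.16 for all genes tested. Against Con.-1 and Con.-2 it was -0.03, beside 0.05 for all genes tested. Of 16 upstream signalling genes, among them *Creb1*, 0 were called by limma over all libraries in any comparison, none with an unadjusted p under 0.05, and in the striatum-poor PTZ libraries *Srf* alone rose, by 0.64 (SE 0.194, adjusted p = 0.187).

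**Figure D5:**
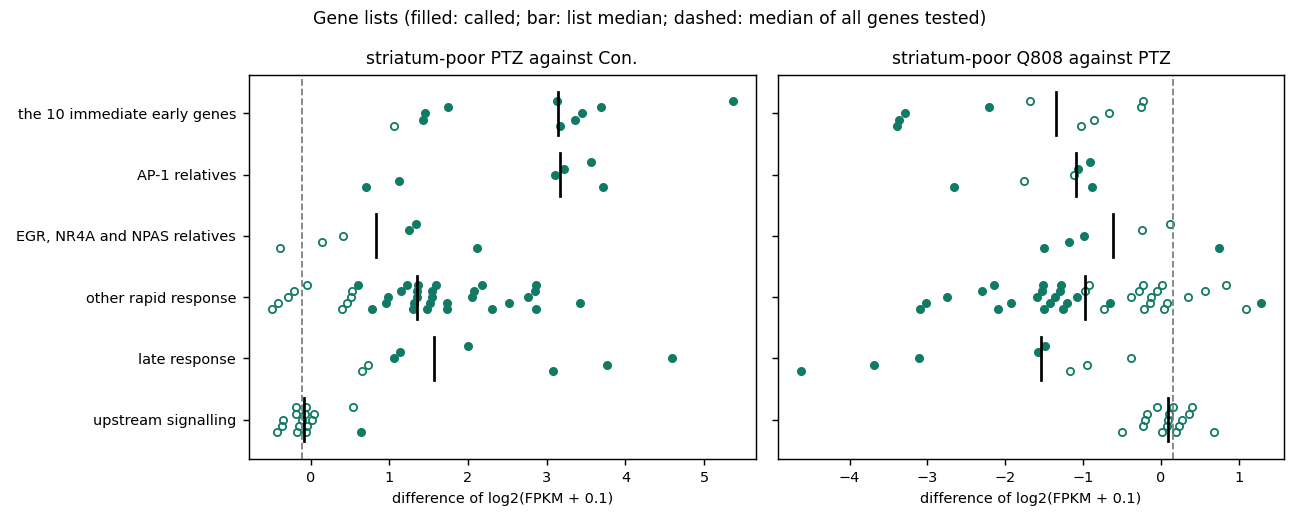
Difference of log2(FPKM + 0.1) in the striatum-poor libraries for the 10 immediate early genes and the 5 lists of related genes, filled where called, with a bar at each list's median and a dashed line at the median of all genes tested. The medians were 3.15 for the members, 3.17 for the AP-1 relatives and -0.09 for upstream signalling in PTZ vs. Con., and -1.35, -1.09 and 0.09 in Q808 vs. PTZ.

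The genes whose log2(FPKM + 0.1) was most like the members' mean, each member scaled to the same spread, were taken from 12553 genes with a mean of at least 1 FPKM. They were *Zfp516* (Pearson r = 0.989 over 8 libraries), *Tiparp* (0.984), *Nup98* (0.980), *Midn* (0.974), *C3h11orf96* (0.972), *Srf* (0.968), *Arl4d* (0.964), *Sik1* (0.955), *Suco* (0.954) and *Bcor* (0.950). The libraries share groups and tissue makeup, so r describes likeness alone. *Zfp516*, which encodes a zinc finger protein, was at 1.23, 1.37 and 2.26 FPKM in the Con. libraries, 2.34, 3.62 and 1.66 in the PTZ libraries and 1.94 and 1.65 in the Q808 libraries. Chosen for its likeness to the members, it had PTZ-2 as its highest library and Con.-3 above PTZ-3. *Srf*, the factor of the CArG box, was at 16.7, 16.3 and 23.8 FPKM in the Con. libraries, 21.1, 31.4 and 18.2 in the PTZ libraries and 20.2 and 18.1 in the Q808 libraries.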

How the data were processed

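Poly(A) RNA from the hippocampus was sequenced in 8 rats (3 Con., 3 PTZ and 2 Q808), with 1 library each. The authors trimmed reads with Trimmomatic and calculated the deposited FPKM with Cufflinks. Their processing notes also name HISAT2, Bowtie2, StringTie and SAMtools without a role; the genome build and versions are not given in the sources used here. FPKM are not counts, so precision comes from the spread between rats. From the steps between low FPKM values, the depth of the other libraries was 0.854 to 1.19 times that of Con.-1. Whole reads were not recovered.

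Groups came from the library titles. GeneIDs were named with RefSeq GRCr8, used for names only (20633 of 22601 genes), and promoter windows came from the same build. The test was limma 3.58.1 in R 4.3.3 with a trend, on log2(FPKM + 0.1), which understates changes of low genes, over 15593 genes with a mean of at least 0.1 FPKM. Each comparison used its 2 groups, and the 5 striatum-poor libraries were fitted together as 3 groups. The sets were split at the largest gap of the striatum marker mean, between 2.47 and 6.10. Calls required more than 1.5-fold difference and a p under 0.05 before adjustment; Benjamini-Hochberg adjusted p cover all genes tested. The calling limits follow the methods of the study, whose DESeq count test was not used here. The 6 comparisons and the interaction term were checked on simulated data. Figures were drawn with matplotlib 3.10.9, and tables were made in Python 3.11.15 (pandas 2.3.3, scipy 1.17.1, numpy 2.4.6).

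The members and lists were chosen with earlier results of these data known. Named beside the members were called genes of 5 lists, up to the 10 largest in PTZ vs. Con. over all and over the striatum-poor libraries and up to 6 in each other comparison over all libraries, and the 10 genes most similar to the members. A gene each of the striatum, erythroid and upstream signalling lists is not reported here and entered no value of these lists. Other genes named, such as *Jund*, *Nr4a2*, *Nr4a3*, *Nab2*, *Arnt*, *Arnt2* and *Srf*, were chosen after their values were seen.

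Only in the replicate block, an alternative to the main fits, were same-numbered Con. and PTZ libraries taken as pairs. The reason was that deviations of these libraries correlated at 0.212, 0.299 and 0.422, although Con.-2 with PTZ-1 correlated at 0.322. The pairing comes from the data alone and numbers 3 are both striatum-rich. Within the striatum-poor libraries, the Con.-1 minus Con.-2 and PTZ-1 minus PTZ-2 differences correlated at 0.066. Q808 numbers did not meet this (-0.295 and 0.322 with PTZ). Alternatives were pseudocounts of 1 and 0.01, other filters, no trend, 2 scalings, all groups together, set as a covariate, the replicate block and leaving out each library.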

Additional observations from a re-analysis of the deposited data

Results flagged for a closer look

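The PTZ vs. Con. difference was not the same in the striatum-rich and striatum-poor libraries for 9 of the 10 immediate early genes by the limma interaction term (unadjusted p under 0.05, beside 22.8% of all 15593 genes tested). Given as the striatum-rich minus the striatum-poor difference on the log2(FPKM + 0.1) scale, it was -6.30 for *Fosb*, -4.19 for *Fos* and -1.93 for *Junb* among the AP-1 members. It was -5.13 for *Egr2*, -4.99 for *Egr3*, -4.45 for *Egr4* and -3.38 for *Egr1*, and it was -4.90 for *Arc* and -3.38 for *Nr4a1*. Each of the 9 was higher in both striatum-poor PTZ libraries than in Con.-1 and Con.-2 and lower in PTZ-3 than in Con.-3. The adjusted p was 0.0102 for *Egr3* and *Arc* and between 0.0656 and 0.144 for the other 7. *Npas4* differed by -0.81 (adjusted p = 0.698 by limma). The striatum-rich side is 1 rat per group, so the term rests on Con.-3 and PTZ-3, and its spread was estimated from the striatum-poor libraries alone. A difference between those rats and a difference between tissue compositions cannot be told apart.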

How the results depend on the processing

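In the striatum-poor libraries PTZ vs. Con. called 9 or 10 members under all 12 alternatives, with no change of direction. All other counts moved. Members called in PTZ vs. Con. over all libraries (1) became 0 with no filter on low values, without the trend, with quantile normalization or with median ratio scaling, 2 with all 3 groups in a fit, 4 with the set as a covariate, and 0 to 7 with a library left out. In Q808 vs. PTZ they (0) became 6 with the replicate block and 0 to 4 with a library left out. In Q808 vs. Con. they (1) became 0 with all 3 groups or the set covariate, 8 with the block and 0 to 8 with a library left out. In the striatum-poor Q808 vs. PTZ (4) they became 2 with no filter, 8 with the block (chosen after seeing the data) and 4 to 9 with a library left out, and in the striatum-poor Q808 vs. Con. (3) they became 1 with a pseudocount of 1, 0 with no filter and 0 to 7 with a library left out. In the Q808 comparisons the block leaves numbers 1 and 2 alone, which share only a number. It changed no call of a member in PTZ vs. Con.

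All genes called in PTZ vs. Con. (395) became 219 with a pseudocount of 1, 672 with the set covariate, 616 with the block and 249 (without PTZ-2) to 1135 (without PTZ-3). In Q808 vs. PTZ (300) they became 193 at a mean of at least 1 FPKM, 714 with the covariate, 1894 with the block and 132 to 1569. In Q808 vs. Con. (540) they became 340.0 with a pseudocount of 1, 1076 with the block and 279 to 1799. In the striatum-poor PTZ vs. Con. (1532) they became 906 with a pseudocount of 1 and 953 to 2000 with a library left out.

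Directions turned for *Nr4a1* in Q808 vs. PTZ and *Arc* in Q808 vs. Con. with the block (-0.27 and 0.16). With a library left out, *Nr4a1* ranged from -0.14 to 1.06 in PTZ vs. Con., from -0.27 to 0.50 in Q808 vs. PTZ, from -0.033 to 1.17 in Q808 vs. Con. and from -0.66 to 0.15 in the striatum-poor Q808 vs. PTZ. *Npas4* ranged from -0.29 to 0.84 in Q808 vs. PTZ and from -1.24 to 0.78 in its striatum-poor form. In Q808 vs. PTZ *Fos* ranged from -1.47 to 0.32, *Egr1* from -0.81 to 0.12 and *Egr2* from -0.74 to 0.37. In Q808 vs. Con. *Egr1* ranged from -0.21 to 0.94, *Egr3* from -0.18 to 0.52 and *Arc* from -0.76 to 0.16. None of these was called in the main fits, and the cause was not tested. Read depth per value is unknown, and 2 to 3 rats per group limit the precision.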
